A study of Mus musculus with 6 samples.

Results

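Memory-labelled CD8+ T cells of CT26 tumors were the cells that the study's annotation calls T cell MEM and that held at least 1 UMI of *Cd8a* or *Cd8b1* and 0 UMIs of *Cd4* and of *Foxp3*. A UMI (unique molecular identifier) marks 1 captured transcript. These members numbered 675 of the 33961 cells of the series, and 675 of the 1179 cells with the memory label (57.3%). The cells they were set beside, effector-labelled CD8+ T cells, carried the annotation T cell EFF and were chosen by the same transcripts, which kept 3048 of 3633 cells. The annotation came from the correlation of each cell's expression profile with reference profiles of immune cells. Any gene may thus have had a part in the choice, and differences between the labels are given here as a description, without a test.

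CT26 is a mouse colon carcinoma line, grown here under the skin of female Balb/c mice, and CD45+ cells were enriched with beads from tumors taken within a week of treatment. According to the sample labels there were 6 tumors, of which 2 were from mice given vehicle (an isotype control in the study's text), 2 from mice given a low dose and 2 from mice given a high dose of a bispecific antibody that binds PD-1 and carries GITR ligand. The high dose is 30 mg/kg in the labels, which state the low dose once as 10 mg/kg and elsewhere as 30 mg/kg. Since the study's text names a single, different dose for this experiment, the dose is uncertain. The deposited table held 4 libraries, M1, M2, M5 and M6, whose names could not be matched to a tumor or a treatment from the labels, so treated and control cells were not compared and the libraries are given side by side and not as replicates.

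CD8+ T cells kill cells that present a foreign or mutated peptide, through granzymes and perforin, and release cytokines such as interferon-γ. After activation, some cells keep the transcription factor TCF1 (*Tcf7*) and the receptor SLAMF6 and can renew the pool. The study uses SLAMF6 to tell progenitor exhausted cells, which carry it, from terminally exhausted cells, which lack it and carry TIM-3 (*Havcr2*). PD-1 restrains T cells at the contact with their target, and GITR (*Tnfrsf18*), a receptor of the TNF receptor family, costimulates them, and both are bound by the bispecific.

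Library M1 gave 113 members, M2 gave 127, M5 gave 208 and M6 gave 227, with a median of 6877 UMIs per cell (1478 to 68465), against 9854 in effector-labelled cells. In each library the members were the shallower cells, with medians of 5757, 5830, 7925 and 7043 UMIs against 10162, 9031, 10532 and 9459 in M1, M2, M5 and M6. The sums behind the expression levels were 5445124 UMIs of members and 40826679 UMIs of effector-labelled cells. Over the whole table, the libraries held 7160 to 10294 cells and 158337797 to 315577167 UMIs. A doublet score above 0.25 was found in 4 members and in 98 effector-labelled cells, and the latter were mostly in M1 (52). Barcodes shared between libraries were carried by 222 of all cells and by 5 members, and the partner cell was never itself a member.

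The label was set beside its markers. *Cd8a* (chromosome 6 of GRCm38, 71373427 to 71379173), a chain of the coreceptor for MHC class I, stood at 639.6, 745, 669.9 and 604 CPM (UMIs scaled to a total of 1000000 UMIs of the cells) in members of M1, M2, M5 and M6, and at 603, 698, 725 and 681 CPM in effector-labelled cells. *Cd3d*, a chain of the T cell receptor complex, was at 884, 1035, 1092 and 1023 CPM in members and 668, 858, 974 and 859 CPM in effector-labelled cells. A CD3 chain was detected in 99.6% of the members. The rule used *Cd8a*, so its level is no check of the label, and the levels overlapped between the labels. *Slamf6* (chromosome 1 of GRCm38, 171917515 to 171953170) had 39.1, 49.1, 37.8 and 39.3 CPM in members and 6.14, 7.78, 15.3 and 16.9 CPM in effector-labelled cells, with no overlap between them. Most members nevertheless carried transcripts of effector cells, as set out with the shares of cells, so the name memory is used here only as the annotation's label.

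Values on each side of the rule's limit of 1 *Cd8a* or *Cd8b1* UMI differed. The 46 members with exactly 1 such UMI had a median of 3062.5 UMIs per cell, 119 CPM of *Tcf7*, 1431 CPM of *Gzmb* and 101 CPM of *Trdc*, the constant chain of the γδ T cell receptor. The 629 members with more had a median of 7176 UMIs, with 52.5, 2102 and 27.7 CPM of the same genes. The 119 memory-labelled cells just outside, with 0 UMIs of *Cd8a*, *Cd8b1*, *Cd4* and *Foxp3*, had a median of 3686 UMIs, with 165, 482 and 428 CPM. Of the other memory-labelled cells left out, 204 held *Cd4* and no *Cd8a* or *Cd8b1* UMI, 101 held both, 17 held *Foxp3* beside *Cd8a* or *Cd8b1*, and 63 held *Foxp3* alone.

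Members made up 13.8% of the memory- and effector-labelled CD8+ T cells in M1 (exact 95% binomial interval 11.5 to 16.4), 13.4% in M2 (11.3 to 15.7), 19.0% in M5 (16.7 to 21.4) and 26.4% in M6 (23.5 to 29.5). M1 and M2 were close to each other, M5 was higher and M6 was the highest, with an interval apart from the other three. Pooled, the share was 18.1% (16.9 to 19.4), and members were 1.99% of all cells. These intervals and all others in the text cover counting error only.

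Expression was compared within each library as log2 of the ratio of member to effector CPM, after 10 CPM was added to both, and summarized as the median of the 4 libraries with their range. A gene was called higher or lower where the median was at least 2-fold and the direction was the same in 4 of 4 libraries. Of 18181 genes with at least 1 UMI, 29 were called higher in members (0.16%) and 221 lower (1.22%). Member levels lay above all effector levels for 5.71% of these genes and below for 13%. The median log2 ratio over these genes was -0.01, and size factors by median of ratios shifted it by only -0.01 among the 3189 genes with at least 50 CPM. Levels were higher in members in 4 of 4 libraries, at any size of difference, for 12% of all genes tested and 31.3% of those with at least 50 CPM, and lower for 20.1% and 32%. Many ratios of genes that were not called did not hold in thinned cells without a cell cycle UMI. Lack of such a UMI does not place a cell outside division. These ratios, and the choice of cells, are given after the cell cycle genes. Genes of cell division were by far the lowest, *S1pr1* and *Tcf7* were among the highest, and *Pdcd1* and *Tox* were at close levels in both labels.

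**Figure D1:**
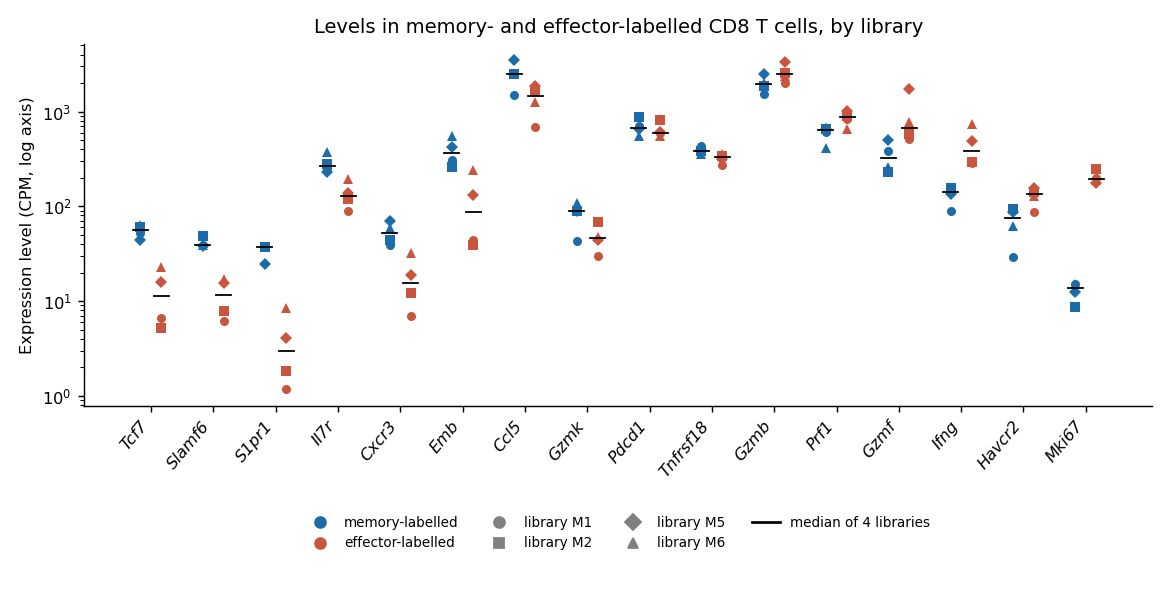
Expression of 16 genes in CPM on a log axis, in memory-labelled (blue) and effector-labelled (red) CD8+ T cells. Each marker is 1 library (circle M1, square M2, diamond M5, triangle M6) and the black bar is the median of the 4; *Tcf7*, *Slamf6* and *S1pr1* are apart in one direction, *Ifng*, *Gzmf* and *Mki67* in the other, and *Pdcd1* overlaps.

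Among genes of memory and stem-like T cells, those called were *Tcf7*, *Slamf6* and *Il7r*, the last at 0.73 and no longer called in thinned cells without a cell cycle UMI (described with cell division). Of 15 such genes, 3 were called higher, against 0.16% of all genes tested, and 0 lower. In 4 of 4 libraries 10 were higher, against 12% of all genes tested and 31.3% of those with at least 50 CPM. The median log2 ratio was 0.55, which fell to 0.25 in those thinned cells. *Tcf7* (chromosome 11 of GRCm38, 52252371 to 52283014), which encodes TCF1, the factor that keeps T cells able to self-renew, had 51.7, 60.2, 44.6 and 63.4 CPM in members of M1, M2, M5 and M6 and 6.62, 5.15, 15.9 and 22.9 CPM in effector-labelled cells, a log2 ratio of 1.53 (1.07 to 2.21). The member levels were all above the effector levels, and the gap was wide in M1 and M2 and narrower in M5 and M6, where effector-labelled cells held more *Tcf7*. *Slamf6*, whose levels are given with the markers, had a log2 ratio of 1.26 (0.87 to 1.73), again with the smaller effector levels in M1 and M2. *Il7r* (chromosome 15 of GRCm38, 9505788 to 9530176), the receptor for the survival cytokine interleukin-7, stood at 251, 277, 229.5 and 376 CPM against 89.5, 119.7, 139.7 and 193 CPM, a log2 ratio of 1.04 (0.68 to 1.39). M6 had the most *Il7r* in both labels, and the lowest member level was still above the highest effector level.

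Other genes of this list had ratios above 0 with all cells without being called. *Bcl2*, an inhibitor of cell death, had 307, 311, 154 and 173 CPM against 133, 157, 81.7 and 92.8 CPM, with a log2 ratio of 0.89 (0.84 to 1.14), and here the labels overlapped because M5 and M6 were low in both. *Lef1*, a relative of TCF1, had 27.8, 22.1, 47.7 and 50.8 CPM against 8.86, 9.999, 22.004 and 22.9 CPM, at 0.87 (0.68 to 1.00). The log2 ratio was 0.71 for *Klf3* and 0.68 for *Satb1*, which both encode regulators of quiescent T cells, 0.55 for *Bach2*, a repressor of effector genes, 0.47 for the costimulatory receptor *Cd27*, 0.44 for lymphotoxin-β (*Ltb*) and 0.39 for *Foxo1*. In thinned cells without a cell cycle UMI, however, *Satb1*, *Cd27*, *Ltb*, *Foxo1* and *Bach2* were at 0.23, 0.18, 0.16, 0.04 and -0.02. Of the markers of follicle-homing and precursor cells, *Id3* was at -0.18 and *Bcl6* at 0.06 with all cells, and *Cxcr5* had 0 UMIs in members.

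Genes for leaving tissue and homing to lymph nodes were the group with the highest median, 0.80 over 5 genes, of which 1 was called, against 0.16% of all genes tested. In 4 of 4 libraries 4 were higher without overlap, against 5.71% of all genes tested and 15.4% of those with at least 50 CPM. *S1pr1* (chromosome 3 of GRCm38, 115710433 to 115715072), the receptor by which T cells follow sphingosine-1-phosphate out of tissue, had 37.8, 36.8, 24.4 and 37.2 CPM in members and 1.17, 1.82, 4.06 and 8.51 CPM in effector-labelled cells, a log2 ratio of 1.67 (1.29 to 2.10). Members of M5 had the least, and effector-labelled cells of M1 were close to 0. *Klf2*, the factor that drives *S1pr1*, stood at 249, 334, 185 and 250.02 CPM against 128, 180.5, 134 and 145 CPM, at 0.80 (0.44 to 0.91). *S1pr4*, another sphingosine-1-phosphate receptor, was at 0.73, and at 0.09 in thinned cells without a cell cycle UMI. *Ccr7*, the lymph node homing receptor, was at 0.45, higher in 3 of 4 libraries, and at -0.12 in those cells. Of 7 tissue residency genes 0 were called, and the median was 0.36. With all cells 6 were higher in 4 of 4 libraries, against 12% of all genes tested and 31.3% of those with at least 50 CPM. Without overlap 2 of them were higher, against 5.71% and 15.4%. In those thinned cells, however, 0 of the 7 were higher in 4 of 4 libraries, 1 was lower and the median was 0.22. *Cd69*, an antagonist of S1PR1 that activated and resident T cells carry, had 114, 128, 73.6 and 161 CPM against 45.4, 58.8, 72.7 and 93.8 CPM with overlap, a log2 ratio of 0.86 (0.02 to 1.16), and was at 0.44 and not higher in every library in those cells. *Cxcr6* was at 0.15 with a sign that held in 13 of 18 ways of computing it, while *Itga1*, an integrin chain that binds collagen, was at 0.36.

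Of 8 chemokine receptors, 3 were called higher in members, against 0.16% of all genes tested, and the median was 0.39. In thinned cells without a cell cycle UMI the median was 0.18. *Ccr2*, still at 1.05, was no longer called there because its lowest library was at -0.002. *Cxcr3*, which guides T cells to the interferon-induced chemokines CXCL9 and CXCL10, had 39.1, 44.2, 69.4 and 59.2 CPM in members of M1, M2, M5 and M6 and 6.92, 12.02, 18.8 and 32.1 CPM in effector-labelled cells, a log2 ratio of 1.38 (0.72 to 1.54), with M6 the closest. *Cxcr4*, the receptor of CXCL12, had 41.6, 35.6, 54.9 and 69.7 CPM against 6.92, 9.29, 22.7 and 34.9 CPM, at 1.12 (0.83 to 1.61). The labels did not overlap for either gene, and both were lowest in the effector-labelled cells of M1. *Ccr2*, a receptor of inflammatory chemokines, was at 87.04, 66.3, 184 and 192 CPM against 42.96, 58.7, 71.9 and 67.8 CPM, at 1.06 (0.15 to 1.38), and its excess came mainly from M5 and M6, with the labels close in M2.

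Among the 3189 genes with at least 50 CPM, 19 were called higher (0.596%) and 90 lower (2.82%). The 12 with the highest ratios held *Tcf7*, *Cxcr3* and *Cxcr4* beside genes outside the lists. *Emb* (chromosome 13 of GRCm38, 117208536 to 117274415), which encodes embigin, a glycoprotein that accompanies lactate transporters, had 307, 258, 419.7 and 555 CPM in members and 44.4, 38.8, 130.2 and 242 CPM in effector-labelled cells, a log2 ratio of 2.04 (1.16 to 2.54). M5 and M6 held more *Emb* than M1 and M2 in both labels, and the labels did not overlap. *Ssh2*, a phosphatase of the actin regulator cofilin, was at 1.45 (1.16 to 1.76), *Pmepa1*, an inhibitor of TGF-β signaling, at 1.21 (0.98 to 1.34), *Neurl3*, a ubiquitin ligase, at 1.19 (0.91 to 1.44), *Gramd3* at 1.16 (0.99 to 1.28) and *Itgb7*, the β7 integrin chain of gut-homing T cells, at 1.11 (1.02 to 1.47). The other three of the 12 are genes of mast cells and myeloid cells and were concentrated in few cells. *Cma1*, a mast cell protease, had 294 UMIs in members, 79.3% of them in 3 cells, *Arg1*, an arginase of macrophages, had 317 with 40.4% in 3 cells, and *Il1b*, a cytokine of myeloid cells, had 2162 with 28.2% in 3 cells. Their log2 ratios of 2.14, 1.40 and 1.19 rest in part on these cells.

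**Figure D2:**
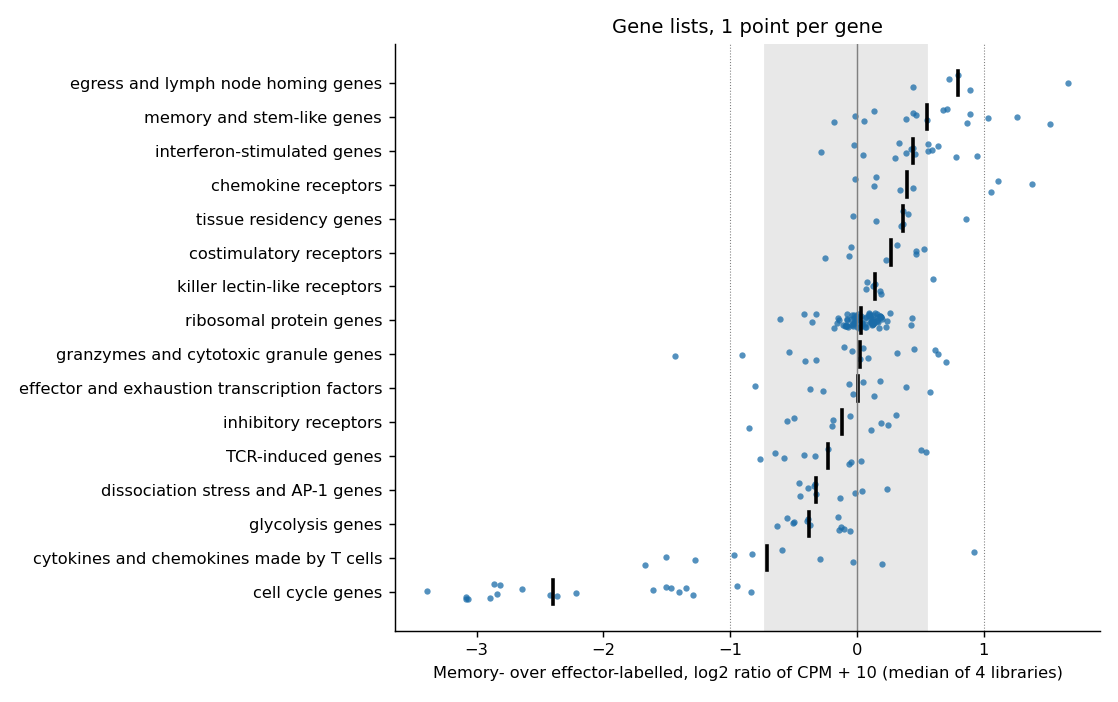
Log2 ratio of memory- to effector-labelled CD8+ T cells for each gene (dots, median of 4 libraries) of 15 function lists and of ribosomal protein genes, with the list median as a black bar. The grey band holds the 5th to the 95th percentile (-0.72 to 0.55) of all 3189 genes with at least 50 CPM, dotted lines mark 2-fold, and the cell cycle list lies almost wholly to the left of both.

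Cytotoxic genes were mixed. Of 15 granzyme and granule genes, 0 were called higher, against 0.16% of all genes tested, and 1 lower, against 1.22%, and the median log2 ratio was 0.03. *Gzmb* (chromosome 14 of GRCm38, 56258838 to 56262260), the main granzyme of killer cells, had 1531, 1856, 2473 and 2009 CPM in members of M1, M2, M5 and M6 against 1993, 2561, 3351 and 2369 CPM, a log2 ratio of -0.41 (-0.46 to -0.24), and was lower in members of every library although the labels overlapped. Perforin (*Prf1*, chromosome 10 of GRCm38, 61297833 to 61304680) had 614, 654, 655 and 415 CPM against 836, 897, 1017 and 655 CPM, at -0.54 (-0.65 to -0.44). *Gzmf* had 387, 228, 505 and 258 CPM against 513, 586, 1718 and 772 CPM, at -1.43 (-1.75 to -0.40), and was the gene called lower, with the highest level in the effector-labelled cells of M5. The neighboring genes *Gzmd* at 0.03, *Gzme* at 0.09 and *Gzmg* at -0.90 are close copies of *Gzmf*, so reads may have been assigned unevenly among them.

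*Gzmk* and *Gzma* lay on the other side. *Gzmk*, a granzyme of effector memory cells, was at 42.9, 89.6, 88.6 and 109 CPM in members against 29.5, 67.5, 44.3 and 47.5 CPM, a log2 ratio of 0.64 (0.36 to 1.04), and *Gzma* at 1542, 599, 1226 and 916 CPM against 535, 408, 670.04 and 757 CPM, at 0.70 (0.27 to 1.51). Both were higher in members of each library, and M1 had the widest gap for *Gzma*. Cathepsin W (*Ctsw*) at 0.61 and *Fasl*, the death ligand, at 0.45 were higher without overlap with all cells, though *Fasl* was at 0.08 with overlap in thinned cells without a cell cycle UMI, while *Nkg7*, a granule protein, was at -0.04. Of 7 killer lectin-like receptors 0 were called, with a median of 0.15, and *Klrd1* (CD94) was at 0.19, which turned to -0.13 in those thinned cells.

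Of 10 cytokine genes 2 were called lower in members, against 1.22% of all genes tested, and 0 higher, and the median was -0.71. In 4 of 4 libraries 4 were lower, against 20.1% of all genes tested and 32% of those with at least 50 CPM. The summed level of the list was 2210, 3327, 4348 and 3191 CPM in members of M1, M2, M5 and M6 against 1778, 3086, 3807 and 4068 CPM, so that the sum, which includes the abundant *Ccl5*, was lower in members only in M6. *Ifng* (chromosome 10 of GRCm38, 118441046 to 118445892), which encodes interferon-γ, had 89.6, 155, 134 and 151 CPM in members of M1, M2, M5 and M6 and 284, 291, 485 and 739.5 CPM in effector-labelled cells, a log2 ratio of -1.67 (-2.22 to -0.87). All members lay below, and M6 had the widest gap because its effector-labelled cells held the most. *Ccl1*, a chemokine of activated T cells, had 1.26, 6.14, 9.84 and 35.6 CPM against 16.3, 44.1, 75.1 and 99.4 CPM, at -1.50 (-2.10 to -1.22), and was the other gene called. *Ccl3* and *Ccl4*, inflammatory chemokines, were at -0.97 (-1.83 to -0.26) and -0.83 (-2.26 to -0.62), and *Csf2*, which encodes GM-CSF, was at -1.28 but higher in members of M2. *Ccl5*, a chemokine that memory CD8+ T cells keep as ready transcript, was the exception, with 1508, 2482, 3469 and 2500.2 CPM in members against 687, 1665, 1869 and 1277 CPM, at 0.93 (0.57 to 1.12), and higher in every library with all cells, but at 0.46 and not higher in every library in thinned cells without a cell cycle UMI.

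Both targets of the bispecific were present at like levels. *Pdcd1* (chromosome 1 of GRCm38, 94038305 to 94052553) had 704, 873, 651 and 556 CPM in members of M1, M2, M5 and M6 and 589.8, 806, 606 and 546 CPM in effector-labelled cells, a log2 ratio of 0.11 (0.03 to 0.25). *Tnfrsf18* (chromosome 4 of GRCm38, 156026164 to 156028895) had 436, 381, 396 and 354 CPM against 274, 343, 317 and 354 CPM, at 0.23 (0.00 to 0.65). M2 had the most *Pdcd1* in both labels, M1 had the widest gap for *Tnfrsf18*, and the labels overlapped for both genes. The sign for *Pdcd1* held in only 13 of 18 ways of computing it (-0.08 to 0.16), and that for *Tnfrsf18* in 17 of 18 (-0.08 to 0.31), so no order between the labels is read from either.

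Of 10 measured inhibitory receptors, 0 were called, and the median was -0.12. *Havcr2* (chromosome 11 of GRCm38, 46454935 to 46481255), which encodes TIM-3, stood at 29.01, 93.3, 88.1 and 62.4 CPM in members and 87.9, 142, 158 and 128 CPM in effector-labelled cells, at -0.85 (-1.33 to -0.56). It was lower in members of every library, with M1 the lowest in both labels. *Entpd1* (CD39) was at -0.55, *Cd200* at -0.49, *Lag3* at -0.20 and *Ctla4* at 0.19, the last with a sign that held in 13 of 18 ways. Of 8 costimulatory receptors 0 were called and 5 lay above without overlap, against 15.4% of the genes with at least 50 CPM, with a median of 0.27 that fell to 0.02 in thinned cells without a cell cycle UMI. *Cd28*, the classical costimulator, had 378, 427, 379 and 436 CPM against 226, 311, 273 and 284 CPM, at 0.53 (0.45 to 0.72), *Icos* was at 0.47, *Tnfrsf1b* at 0.32 and *Tnfrsf9* (4-1BB) at -0.25.

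Transcription factors of effector and exhausted cells gave 0 calls of 10, with a median of 0.01 whose sign held in 10 of 18 ways. *Tox*, a factor of exhausted cells, had 134, 146, 79.8 and 49.8 CPM in members of M1, M2, M5 and M6 and 117, 128, 73.97 and 53.2 CPM in effector-labelled cells, at 0.14 (-0.08 to 0.18). The libraries differed far more than the labels, with *Tox* lowest in M6 and next lowest in M5 in both. *Eomes*, a factor of memory and exhausted CD8+ T cells, was at 0.58 (0.28 to 0.89) and lay above without overlap, whereas *Irf4*, induced with the strength of the antigen signal, was at -0.80 (-1.20 to -0.43) and lay below without overlap. *Tbx21*, *Prdm1*, *Id2* and *Batf* were at -0.03, -0.27, -0.37 and 0.39.

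Among genes induced by the T cell receptor, 0 of 11 were called and the median was -0.23. *Egr1*, *Egr2* and *Myc*, early response genes, lay below without overlap, against 13% of all genes tested and 20.7% of those with at least 50 CPM, at -0.76, -0.58 and -0.65, but in thinned cells without a cell cycle UMI they were at 0.08, -0.21 and 0.02, so no direction is read from them. The *Nr4a* genes were near 0, from -0.06 to 0.03, and the feedback inhibitors *Dusp2* and *Tnfaip3* were at 0.54 and 0.51 with all cells and at 0.14 and 0.23 in those thinned cells. Of 15 interferon-stimulated genes 0 were called and 11 were higher in 4 of 4 libraries, against 31.3% of the genes with at least 50 CPM, with a median of 0.44. *Ifit3*, which the antiviral interferon response induces, was the most different of those named, with 70.6, 55.2, 31.1 and 35.6 CPM against 20.2, 12.1, 19.6 and 23.5 CPM, and M1 and M2 had the widest gaps. *Ifit1* was at 0.78 and *Isg15* at 0.30. In thinned cells without a cell cycle UMI 7 of the 15 were higher in 4 of 4 libraries, a count for which no share over all genes was taken. Of the 15, 2 were called higher there, against 0.17% of all genes in these cells, *Rsad2* at 1.28 and *Ifit3* at 1.06. Of 12 glycolysis genes 0 were called and 9 were lower in 4 of 4 libraries, against 32%, with a median of -0.38, and *Ldha*, which makes lactate, had 960.01, 804, 734 and 798 CPM against 1430.02, 1302, 1041 and 1154 CPM. Of 10 stress genes that tissue dissociation can induce 0 were called (median -0.32), of the 18 genes the study names 1 was called in each direction (median 0.10), and of 92 ribosomal protein genes 0 were higher and 1 lower (median 0.03), against 0.16% higher and 1.22% lower of all genes tested.

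Cell division separated the labels most. Of 20 cell cycle genes, 18 were called lower in members, against 1.22% of all genes tested, and the median log2 ratio was -2.40. Without overlap 20 lay below, against 13% of all genes tested and 20.7% of those with at least 50 CPM. The antigen Ki-67 (*Mki67*), present in dividing cells, had 15.1, 8.59, 12.4 and 15.2 CPM in members of M1, M2, M5 and M6 and 201, 247, 178 and 188 CPM in effector-labelled cells, at -3.07 (-3.79 to -2.98). Topoisomerase IIα (*Top2a*), which untangles chromosomes, had 25.2, 27.01, 23.8 and 14.7 CPM against 293, 299, 230.4 and 265 CPM, at -3.08 (-3.48 to -2.83). For *Mki67*, M2 had the lowest level in members and the highest in effector-labelled cells, and for *Top2a* members of M6 had the lowest level. The lowest ratios of genes with at least 50 CPM were -3.39 for the PCNA partner *Pclaf*, -3.36 for the linker histone *Hist1h1b* and -3.08 for survivin (*Birc5*), followed by *Top2a*, *Mki67*, *Stmn1*, *Cenpf*, *Ccna2*, *Ube2c*, *Hist1h2ap*, *Nusap1* and *Rrm2*, down to -2.64. The replication clamp *Pcna* at -0.95 and the histone variant *H2afz* at -0.83, which cells use outside division as well, were the genes not called. Cell cycle transcripts may, like all others, have been among the genes from which the labels were made.

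Promoters of these cell cycle genes are shown because the genes differed together and because 2 short elements are known from such promoters, the CHR (TTTGAA or TTCGAA) and the CCAAT box, both searched here on both strands. In the RefSeq promoter table of GRCm38.p6, 17 of the 20 genes were found, and 16 had 1 promoter of 300 bases, from 250 before to 50 after the start. A CHR was in 7 of 16 (43.8%), against 19.2% of 32851 promoters, a CCAAT box in 14 (87.5%), against 37.4%, and both were in 7 (43.8%), against 7.52%. The cyclin gene *Ccnb2* (log2 ratio -2.42), the kinase gene *Cdk1* (-2.37) and *Mki67* (-3.07) held both, and *Birc5* (-3.08) held neither in this window with an equally low ratio. Capitals mark matches, on either strand. A match is a description of letters and not a measured site.
Ccnb2, chr9:70421505-70421804, minus strand: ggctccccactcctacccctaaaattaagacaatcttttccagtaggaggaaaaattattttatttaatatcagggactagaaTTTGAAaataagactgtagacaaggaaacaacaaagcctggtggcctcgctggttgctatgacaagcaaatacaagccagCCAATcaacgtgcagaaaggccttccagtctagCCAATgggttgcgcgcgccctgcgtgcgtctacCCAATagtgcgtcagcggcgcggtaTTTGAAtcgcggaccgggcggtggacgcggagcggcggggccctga
Cdk1, chr10:69352863-69353162, minus strand: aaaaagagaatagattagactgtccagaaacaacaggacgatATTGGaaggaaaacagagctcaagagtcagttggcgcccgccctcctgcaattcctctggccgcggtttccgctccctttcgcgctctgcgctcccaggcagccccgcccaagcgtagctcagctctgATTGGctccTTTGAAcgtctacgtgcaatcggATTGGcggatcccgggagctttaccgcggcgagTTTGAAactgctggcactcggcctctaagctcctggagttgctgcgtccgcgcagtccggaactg
Mki67, chr7:135716330-135716629, minus strand: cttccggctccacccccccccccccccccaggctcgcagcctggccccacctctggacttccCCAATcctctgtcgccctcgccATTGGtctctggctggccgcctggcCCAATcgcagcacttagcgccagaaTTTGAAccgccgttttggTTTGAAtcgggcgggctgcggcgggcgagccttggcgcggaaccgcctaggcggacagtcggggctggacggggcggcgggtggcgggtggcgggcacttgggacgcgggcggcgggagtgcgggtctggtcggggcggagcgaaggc
Birc5, chr11:117848987-117849286, plus strand: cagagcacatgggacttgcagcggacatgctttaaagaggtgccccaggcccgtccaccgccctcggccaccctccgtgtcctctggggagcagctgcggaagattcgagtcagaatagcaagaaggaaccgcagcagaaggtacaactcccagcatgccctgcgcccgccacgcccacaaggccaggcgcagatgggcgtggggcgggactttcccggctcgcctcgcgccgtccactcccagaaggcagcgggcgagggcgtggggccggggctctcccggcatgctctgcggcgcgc

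Because dividing cells were so unequal and cells of the labels differed in depth, the ratios were computed again, by a choice made after the values were seen, on cells thinned to 2000 UMIs that held 0 UMIs of 10 cell cycle genes. This left 532 members and 1553 effector-labelled cells. Of 14112 genes with at least 1 UMI in these cells, 24 were called higher (0.17%) and 21 lower (0.149%), and 14 and 6 of these were also called with all cells. Thinning alone, with cells that held a cell cycle UMI kept, gave 29 and 111 calls, of which 19 and 92 were also called at full depth. Of the 221 genes called lower at full depth, 92 were thus called again after thinning alone. With the choice of cells added to thinning, 6 were. That choice also left fewer cells, and the part of their number in the lost calls was not tested. *Tcf7* remained called at 1.38, as did *Slamf6* at 1.04, *S1pr1* at 1.57, *Cxcr3* at 1.17, *Cxcr4* at 1.10 and *Emb* at 1.96, and *Klf2* and *Klf3* were now called at 1.09 and 1.17. On the lower side, *Ifng* at -2.01 and *Ccl1* at -2.32 remained, and *Ccl4* at -1.49, *Irf4* at -1.18, *Havcr2* at -1.07 and *Prf1* at -1.06 were now called. The egress list had a median of 1.07, although *S1pr4* and *Ccr7* lost their excess, and the cytokine list of -0.67, whereas the memory list was at 0.25 and the cell cycle list was at 0.00 by construction. *Pdcd1* was at -0.04 and *Tnfrsf18* at -0.08. Other genes lost their call. *Il7r* was at 0.73, *Neurl3* at 0.57, *Gramd3* at 0.93 and *Trdc* at 0.89, all below 2-fold, and *Ccr2* was at 1.05 but no longer above 0 in every library. *Gzmf*, the granule gene called lower with all cells, was at -0.89. Among cell cycle genes outside the 10 used for the choice, *Mcm3* remained called lower at -1.17 and *Mcm5*, *Stmn1*, *Pcna* and *Tubb5* were at -0.83, -0.67, -0.47 and -0.38, below 0 in each library, whereas the sign turned for *Hmgb2* at 0.25, *H2afz* at 0.08, *Ccnb1* at 0.24, *Tyms* at 0.17 and *Mcm7* at 0.03.

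Other listed genes also moved. Of the 142 listed genes outside the cell cycle, called or not, 58 were higher in members in 4 of 4 libraries with all cells. The share over all genes with at least 50 CPM was 31.3%. In the thinned cells without a cell cycle UMI, 24 of these 58 were again higher in 4 of 4 libraries, while the median turned for 9. Of 31 listed genes lower with all cells, against 32% of all genes with at least 50 CPM, 20 were lower in 4 of 4 libraries again and the median turned for 4. The part of depth in these losses was not tested. *Bcl2* was at 0.59, *Cd28* at 0.35, *Icos* at 0.12, *Tnfrsf1b* at 0.20 and *Ctsw* at 0.36, all smaller than with all cells and above 0 in each library. *Gzma* was at 0.82, above 0 in each library, whereas *Gzmk* at 0.96 and *Lef1* at 1.13 were not above 0 in every one. *Cxcr6* was lower in members of each library, at -0.21, and *Tox*, *Ctla4*, *Nr4a3*, *Gzmd* and *Gzme* turned to -0.15, -0.21, -0.21, -0.14 and -0.14. *Batf* at 0.10, *Prdm1* at -0.06, *Gzmg* at -0.01 and *Csf2* at -0.70 lay across 0. On the lower side, *Lag3* at -0.76, *Cd200* at -0.87, *Id2* at -0.60 and *Gzmb* at -0.51 were at least as far below as with all cells, and *Entpd1* at -0.34 was closer to 0.

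**Figure D3:**
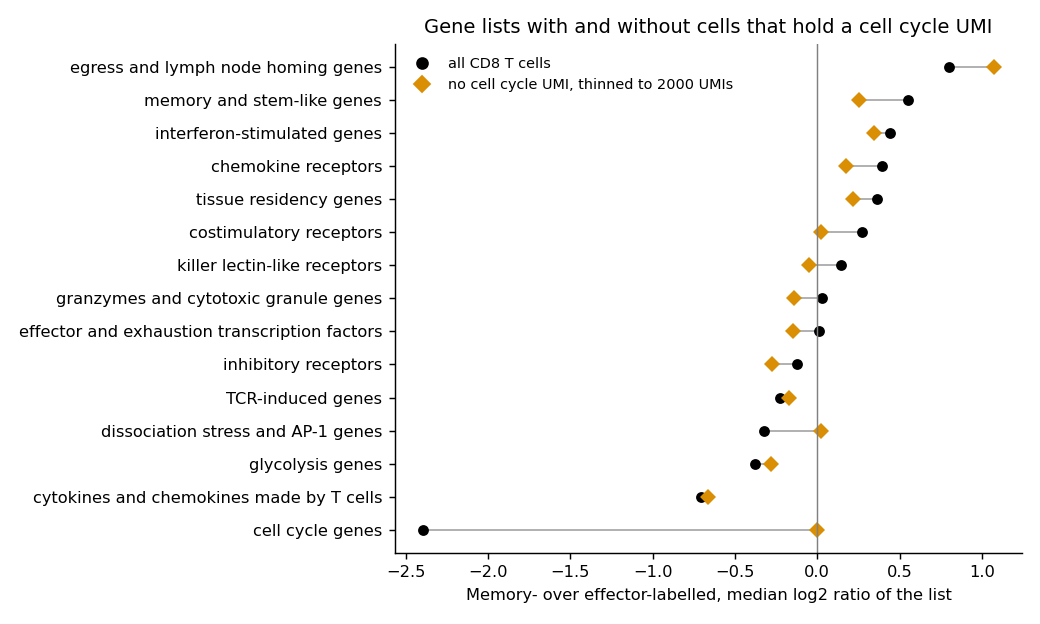
Median log2 ratio of memory- to effector-labelled CD8+ T cells per gene list, with all cells (black circles) and with cells thinned to 2000 UMIs that held no UMI of 10 cell cycle genes (orange diamonds). The cell cycle list moves from -2.40 to 0.00, and the egress list (0.80 and 1.07) and the cytokine list (-0.71 and -0.67) keep their side.

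Shares of cells with a UMI were counted after each cell was thinned to 2000 UMIs, which left 654 members and 2982 effector-labelled cells and dropped 21 and 66 shallower cells, and were pooled over the libraries, of which M6 gave 221 of these members and 621 of these effector-labelled cells. Cells labelled Stroma, which should lack these T cell genes, were counted beside them at a median of 40692 UMIs before thinning. Members were shallower, at a median of 6877, so thinning took a smaller part of their UMIs. Stroma shares may thus understate the background of members, which was not tested. *Tcf7* was detected in 11.01% (8.71 to 13.7) of members, 3.09% (2.49 to 3.77) of effector-labelled cells and 0.0384% of Stroma cells, and without thinning in 23.7% and 8.83% of members and effector-labelled cells. By library, the thinned share was 10.9%, 11.9%, 7.80% and 13.6% in members of M1, M2, M5 and M6, against 1.58%, 2.02%, 3.44% and 5.64% in effector-labelled cells. Thus most members had no *Tcf7* UMI at either depth. *Slamf6* was detected in 7.34% (5.46 to 9.61) and 3.25% (2.65 to 3.95), *S1pr1* in 5.81% (4.14 to 7.89) and 0.973% (0.652 to 1.39), and *Il7r* in 37.6% (33.9 to 41.5) and 22.6% (21.1 to 24.1). Stroma cells carried these 3 genes in 0.0511%, 0.102% and 0.166% of cells, and the shares without thinning were 20%, 14.4% and 64% in members and 10.1%, 2.95% and 53.2% in effector-labelled cells.

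Transcripts of effector function were found in a larger part of the members than *Tcf7*. Detection at this depth rises with the level of a gene, so shares of different genes are not read as parts of cells that express them. *Gzmb* was detected in 64.4% (60.6 to 68.05) of members and 78.5% (76.99 to 79.97) of effector-labelled cells, with 4.01% of Stroma cells as background, and *Prf1* in 41.6% (37.8 to 45.5) and 62.5% (60.7 to 64.2), with 1.18%. *Havcr2* was detected in 10.4% (8.16 to 12.99) and 22.6% (21.1 to 24.1), and *Lag3* in 40.8% (37.03 to 44.7) and 57.2% (55.4 to 58.96), with 0.121% and 0.671% of Stroma cells. All of these were less frequent in members, and *Mki67* was detected in only 1.68% (0.843 to 2.99) of them, against 19.6% (18.2 to 21.1). Stroma cells themselves carried *Mki67* in 9.84% of cells, so for this gene they are no background. Without thinning, *Gzmb* was in 77.2% and 91.1%, *Prf1* in 65.9% and 86.5%, *Lag3* in 65.6% and 90.6%, *Havcr2* in 24.1% and 53.7%, and *Mki67* in 9.48% and 38.4% of members and effector-labelled cells.

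*Pdcd1* was detected in 60.7% (56.8 to 64.5) of members and 68.3% (66.6 to 69.98) of effector-labelled cells, against 0.281% of Stroma cells and 1.14% of NK cells, and *Tnfrsf18* in 47.7% (43.8 to 51.6) and 49.2% (47.4 to 51.01), against 0.569% and 28.5%. Without thinning, the shares were 78.5% and 91.6% for *Pdcd1* and 77.2% and 88.3% for *Tnfrsf18*. Since the shares and the CPM of these genes point in opposite directions, no order is read from them. Both transcripts together were detected in 205 of 654 members, or 31.3% (27.8 to 35.1), against 36.5% of effector-labelled cells (34.8 to 38.2) and 0.522% of NK cells. By library, 33.6%, 39.0%, 30.2% and 27.1% of members of M1, M2, M5 and M6 carried both. Among members with *Pdcd1*, 51.6% also carried *Tnfrsf18* (46.6 to 56.7, 397 cells), against 41.6% of members without it (35.5 to 47.9, 257 cells). Without thinning, 65.6% of members carried both.

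**Figure D4:**
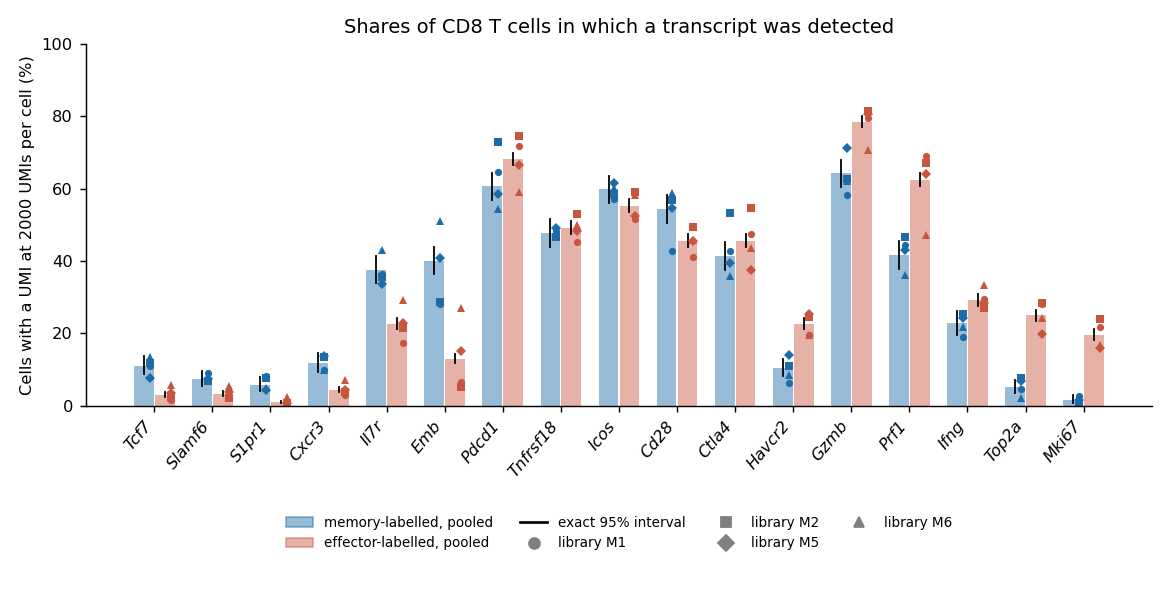
Share of cells with at least 1 UMI of each of 17 genes after thinning to 2000 UMIs, in memory-labelled (blue) and effector-labelled (red) CD8+ T cells. Bars are the pooled share with its exact 95% binomial interval and points are the 4 libraries. *Tcf7* and *Slamf6* are below 12% in members while *Gzmb* and *Pdcd1* are above 60%, and detection rises with the level of a gene.

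The members were also not alike among themselves. After thinning, 104 of 654 (15.9%) carried a UMI of *Tcf7* or *Slamf6*, which came to 17.3%, 13.6%, 13.7% and 18.6% in M1, M2, M5 and M6, against 5.90% of effector-labelled cells (3.58%, 3.92%, 6.54% and 10.1%). Of these 104 members, 2 carried *Havcr2*, or 1.92% (0.234 to 6.77), against 12% (9.40 to 15.0) of the members without *Tcf7* or *Slamf6*. *Gzmb* was detected in 39.4% (30.0 to 49.5) against 69.1% (65.0 to 72.9), and *Pdcd1* in 46.2% (36.3 to 56.2) against 63.5% (59.3 to 67.5). *Tnfrsf18*, in contrast, was at 50% (40.0 to 60.0) against 47.3% (43.0 to 51.5), and a cell cycle UMI at 17.3% against 18.9%, with intervals that overlapped. The effector-labelled cells split in the same way had *Havcr2* in 7.95% against 23.5%, *Gzmb* in 48.3% against 80.4% and *Pdcd1* in 54.5% against 69.2%.

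Expression levels of the thinned cells were compared along the same split, within each library. Of 12510 other genes with at least 1 UMI, 58 were called higher in members with *Tcf7* or *Slamf6* (0.464%) and 375 lower (3%). With 16 to 41 cells per library on the positive side, low genes are poorly measured, and of the 6334 genes with at least 20 UMIs 44 were called higher (0.695%) and 270 lower (4.26%). *Prf1* had 105, 125, 53.6 and 109.8 CPM in members with *Tcf7* or *Slamf6* of M1, M2, M5 and M6 and 604, 779, 562 and 431 CPM in the others, a log2 ratio of -2.48 (-3.17 to -1.88). *Gzmb* had 816, 469, 714 and 963 CPM against 1593, 2618, 2511 and 1869 CPM, at -1.38 (-2.46 to -0.95). The positive cells were the lower ones in all 4 libraries for both genes, without overlap. The late granzymes were lower still, *Gzmf* at -2.48 (-3.65 to -1.87), *Gzmd* at -3.65 (-4.72 to -1.98) and *Gzme* at -4.51 (-6.03 to -2.69), the last with 0 UMIs in the positive cells of M1, M2 and M5, so that its ratio depends on the pseudocount. Of 15 granule genes 6 were called lower, against 3% of the genes tested along this split and 4.26% of those with at least 20 UMIs.

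Of 10 inhibitory receptors 3 were called lower in the positive cells, against 3% of the genes tested, *Havcr2* with 2 UMIs in these 104 cells against 85 in the other 550, *Lag3* at -1.15 and *Pdcd1* with 421, 562, 250 and 354 CPM against 879, 1211, 720.3 and 586 CPM, at -1.07 (-1.49 to -0.71). Of 8 costimulatory receptors 2 were called lower, against the same 3% (4.26% of genes with at least 20 UMIs), *Tnfrsf9* at -1.63 and *Tnfrsf4* (OX40) at -1.19, and *Tnfrsf18* was at -0.33 (-0.89 to 0.15). *Cd8a* was lower as well, at 474, 344, 393 and 427 CPM against 692, 951, 814 and 644 CPM. *Thy1*, a T cell marker, was called lower, at -1.39 (-1.76 to -0.33). On the higher side, *Klf3* had 105, 93.8, 161 and 122 CPM against 10.99, 14.7, 33.9 and 44.4 CPM, at 2.01 (1.28 to 2.46), and *Klf2* had 500, 1094, 339 and 573 CPM against 192, 353, 218 and 267 CPM, at 1.20 (0.62 to 1.60). *Emb*, *Pmepa1*, *Ssh2*, *Cxcr3*, *Cxcr4* and *Gramd3*, all high in members against effector-labelled cells, were also called higher here, from 1.05 to 1.43, while *Il7r* at 0.75 (0.08 to 0.94), *S1pr1* at 1.23 (-0.46 to 2.18) and *Lef1* at 0.19 were not. The macrophage gene *Arg1* was called higher too, at 1.41 (0.91 to 4.28), with 24 UMIs against 35. In contrast, the MHC class II gene *H2-Ab1* at -1.23 and the mast cell marker *Cpa3* at -1.34 were called lower. Cell cycle, interferon-stimulated, cytokine, killer lectin-like, T cell receptor-induced and stress lists gave 0 calls. The residency, glycolysis and transcription factor lists gave 1 lower call each, *Cxcr6* at -1.31, *Tpi1* at -1.22 and *Zeb2* at -1.01. Of the 17 other genes the study names 8 were called lower, against 3% of the genes tested and 4.26% of those with at least 20 UMIs. These 8 are the 6 granule genes, *Tnfrsf9* and *Pdcd1*, which are counted above, and are no further result. Before thinning, the positive cells were the shallower ones in each library, with medians of 5208, 5294, 5934 and 6433 UMIs against 6009, 6106, 8081 and 7276.5, and the part of this in the result was not tested.

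**Figure D5:**
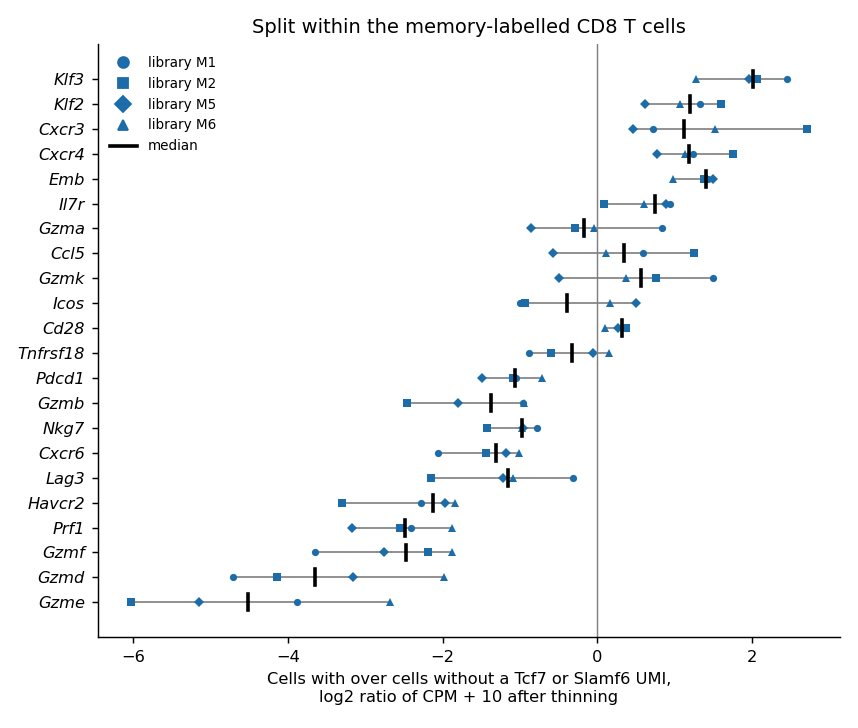
Log2 ratio of memory-labelled CD8+ T cells with a *Tcf7* or *Slamf6* UMI to those without one, after thinning to 2000 UMIs, for 22 genes. Points are the 4 libraries and bars their median; *Klf3* is the highest at 2.01, the late granzymes are the lowest, and *Tnfrsf18* lies across 0.

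Transcripts of other cells were counted beside these results. Of the T cell core list 0 of 12 genes were called, and its summed level was 8424 to 9314 CPM in members and 6989 to 8798 in effector-labelled cells. Its median log2 ratio was 0.21, and 8 genes were higher in 4 of 4 libraries, against 31.3% of the genes with at least 50 CPM. Medians of the costimulatory and killer lectin-like receptor lists, 0.27 and 0.15, were of like size. Of 12 macrophage and monocyte markers 0 were called, with a median of 0.56 and a sum of 1184 to 1825 CPM against 907 to 1207. *Lyz2*, a lysozyme of myeloid cells, was at 464, 619, 343 and 115 CPM in members of M1, M2, M5 and M6 against 296, 227, 233 and 229.5 CPM, highest in members of M2 and lowest in those of M6. Of 7 NK cell markers 0 were called (sum 550 to 741 against 382 to 561), with a median of 0.18. In 4 of 4 libraries 5 of them were higher in members and 0 lower, against 31.3% and 32% of the genes with at least 50 CPM. *Tyrobp* was the highest of them at 0.89, and at 0.78 in thinned cells without a cell cycle UMI. Of 5 γδ T cell markers 1 was called higher, against 0.16% of all genes tested, *Trdc* at 1.06 (0.49 to 1.28). Of 3 mast cell markers 0 were called (sum 30.6 to 89.6 against 14.0 to 31.6), and of 5 dendritic cell markers 0 (sum 138 to 916 against 215 to 362). The lists for CD4+ helper, regulatory T, B and endothelial cells and the innate-like T cell gene *Zbtb16* gave 0 calls, and *Cd4* and *Foxp3* were at 0 by the rule, while *Ms4a1*, *Cdh5* and *Klra8* had 0 UMIs in members. Of 6 stroma and tumor markers 3 were called lower in members, against 1.22% of all genes tested, *Col1a2* at -2.14, *Dcn* at -1.65 and *Sparc* at -1.03, with a sum of 57.0 to 114 CPM against 129 to 418, but *Sparc* was at 0.30 in thinned cells without a cell cycle UMI. Cells that carried stroma transcripts were 2.81% of members and 5.25% of effector-labelled cells, and without them the genes called lower numbered 142 in place of 221. Cells that carried macrophage transcripts were 11.9% of members and 9.51% of effector-labelled cells. Without those, 30 genes were called higher and 242 lower, in place of 29 and 221. The part of these transcripts in the other results was not tested.

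Levels in cells of other labels were described over pooled cells. *Tcf7* was at 54.5 CPM in members, 12.4 in effector-labelled CD8+ T cells, 159 in the 138 memory-labelled cells with *Cd4* and no *Cd8a*, *Cd8b1* or *Foxp3* UMI, and 335 in the 55 cells with the naive T cell label. *S1pr1* followed the same order, at 32.7, 3.70, 173 and 368 CPM, as did *Klf2*, at 239, 146, 577 and 1479 CPM. For these 3 genes the members lay between the effector-labelled and the naive cells and nearer to the former. Only 4 of the 55 naive-labelled cells met the CD8 rule, so this is not an order among CD8+ T cells. *Gzmb* ran the other way, at 2081, 2617, 441 and 101 CPM, and *Pdcd1* was at 659, 638, 262 and 18.4 CPM, so that the members were close to effector-labelled cells and above the CD4+ cells of their own label. *Tnfrsf18* was highest in those CD4+ cells, at 634 CPM, against 385 in members, 320.2 in effector-labelled and 257 in naive cells.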

How the data were processed

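Cells of 4 libraries were profiled with 10x 3′ single-cell mRNA-seq. The authors counted UMIs with Cell Ranger 3.0.2 on mm10 (GRCm38) and kept cells above a minimum UMI number. The deposited counts are raw UMIs, and each cell has a library name and a cell type label. The summed counts matched the deposited total in 33961 cells. No removal of doublets or of free RNA is described in the study's methods.

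Counts were summed per label and library and scaled to CPM (pandas 2.3.3, scipy 1.17.1 and numpy 2.4.6 in Python 3.11.15), and ratios took a pseudocount of 10 CPM. The code was tested on simulated data. Cells were scored for doublets with scrublet in scanpy 1.11.5 (expected rate 0.06, limit 0.25) and kept. A cell carried stroma or macrophage transcripts at 2 or more UMIs and 200 CPM of 5 or 6 markers. Low counts limit genes near 10 CPM.

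The members and gene lists were chosen with earlier results of these data known. Genes named were those of the lists and, among genes with at least 50 CPM and 1 sign in all libraries, the 12 highest and the 12 lowest ratios, leaving out Gm, Rik, mitochondrial and ribosomal protein genes. Positions are from GENCODE M21. *Cd244a* is not in the table under that symbol, and some listed genes are not reported here. Alternatives changed the pseudocount, scaling, pooling, depth and cell filters, or left out a library. The planned edgeR comparison of treatments was not run, since the libraries could not be matched to samples.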

Additional observations from a re-analysis of the deposited data

How the results depend on the processing

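The number of genes called followed the pseudocount and the cells used. With a pseudocount of 1 CPM, 131 genes were called higher in members and 883 lower, and with 50 CPM 4 and 36, in place of 29 and 221, since the added constant itself shrinks the ratios of low genes. The lower calls numbered 100 with a mean of CPM per cell, 111 with sums of cells thinned to 2000 UMIs and 21 in thinned cells without a cell cycle UMI. They numbered 142 without cells that carried stroma transcripts and 148 without cells of doublet score above 0.25. The cause was not tested beyond what each setting leaves out. Without 1 library at a time, 22 to 43 genes were called higher and 203 to 253 lower, and members made up 15.6% to 19.7% of the memory- and effector-labelled CD8+ T cells, the lowest without M6. Depth limits co-detection. *Pdcd1* and *Tnfrsf18* together were found in 16.1% of members at 1000 UMIs, 55.2% at 4000 and 65.6% without thinning, and *Havcr2* with *Tcf7* or *Slamf6* in 0%, 2.01% and 6.22%, against 31.3% and 0.306% at 2000 UMIs. Among called genes named by their ratio and recomputed under 18 alternatives, none turned to the other side, and several cell cycle genes went to 0 where cells that held them were left out. A called gene has 1 sign in all libraries. Leaving out a library, changing the pseudocount or filtering genes by their UMIs therefore could not turn it, and these settings are no check of direction. In those thinned cells without a cell cycle UMI, other called genes did turn, *Ccnb1* to 0.24, *Hmgb2* to 0.25, *Tyms* to 0.17, *Mcm7* to 0.03 and *Sparc* to 0.30. *Il7r*, *Trdc*, *Neurl3*, *Gramd3* and *Gzmf* fell below 2-fold and lost their call. *Ccr2* at 1.05 and *Dcn* at -1.09 lost it only because the direction was not the same in every library. The stroma, macrophage, cell cycle and thinned-sum settings were added later, with the values known. Ratios of levels were taken within each library, whereas shares of cells were pooled over libraries. No paired analysis was possible because, for the treatments, library names give no replicate number that matches a sample.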

Other observations

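The libraries differed among themselves within the memory-labelled CD8+ T cells, in ways that no comparison of the report uses because their treatment is unknown. *Gzmc*, a granzyme of activated killer cells, varied most among libraries of the listed genes with at least 50 CPM in members, with 231, 63.8, 503 and 633 CPM in members of M1, M2, M5 and M6 and 312, 129.7, 591 and 543 CPM in effector-labelled cells, so that M2 was the lowest in both labels. *Trbc1*, 1 of the constant segments of the T cell receptor β chain, had 1118, 484, 1363 and 924 CPM in members and 1048, 339.6, 1075 and 686 CPM in effector-labelled cells, and M2 was again the lowest in both. *Satb1*, which encodes a chromatin organizer of T cells, had 313, 322, 507 and 473 CPM and 179.5, 196, 313 and 345 CPM, with M5 and M6 the highest in both labels. *Nr4a2*, a gene induced by the T cell receptor, had 682, 577, 442 and 426 CPM and 600.02, 663, 450.1 and 444 CPM, with M5 and M6 the lowest in both. *H2-Ab1*, an MHC class II gene of dendritic cells, macrophages and B cells, had 34.1, 293, 86.5 and 152 CPM in members and 76.9, 62.7, 106 and 69.997 CPM in effector-labelled cells, and only in members did M2 stand out as high. These genes were picked after their values were seen, no test was made over the 4 libraries, and the sources of the differences were not tested.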
